A study of Mus musculus with 6 samples.

Results

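The genes described here are 9 CXC chemokine ligands and 1 receptor, Cxcl1, Cxcl2, Cxcl3, Cxcl5, Cxcl9, Cxcl10, Cxcl16, Pf4, Ppbp and Cxcr4. They were taken by their GENCODE M21 symbol and are 10 of the 54532 genes in the deposited tables. Their RNA was measured by RNA-seq in 3 control and 3 PGAM5 KD libraries of iBMDMs, which are mouse bone marrow-derived macrophages immortalized with retroviruses that carry v-raf and v-myc. PGAM5 is a mitochondrial phosphatase, and PGAM5 KD cells carry a lentiviral shRNA against it where control cells carry a control shRNA. Both groups were treated with LPS, a bacterial ligand of TLR4, at 100 ng/ml for 4 hours. All 6 libraries were LPS-treated, and no induction over untreated cells can be given. The labels do not say whether the replicates were separate cultures or infections, and the p-values measure only the spread between these libraries, which may be technical.

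CXC chemokines are small secreted proteins that bind G protein-coupled receptors and direct the movement of leukocytes. Cxcl1, Cxcl2, Cxcl3 and Cxcl5 carry a Glu-Leu-Arg motif before their first cysteines, act on Cxcr2, attract neutrophils, and are known targets of NF-kB in macrophages exposed to bacterial products. Cxcl9 and Cxcl10 lack that motif, act on Cxcr3 of activated T cells and NK cells, and are induced by interferons, in the case of Cxcl10 by type I interferon together with NF-kB. Cxcl16 is made as a transmembrane protein that also takes up oxidized lipoprotein, Pf4 and Ppbp are stored in platelet granules, and Cxcr4 is the receptor of Cxcl12.

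The libraries held 18163464 to 24388918 fragments, recovered from the FPKM values (fragments per kilobase of exon, scaled to depth), and a recovered fragment count is the depth behind each value. Pgam5, the gene targeted by the shRNA, was at 17.1, 13.0 and 13.4 FPKM in control and 4.33, 5.75 and 4.53 FPKM in PGAM5 KD libraries, which is a log2 fold change of -1.40 (SE 0.13, limma adjusted p = 0.000358). Of 10 macrophage markers 8 passed the filter on low values, Mertk was listed at 0, and their summed level was 2980 to 3060 FPKM in control and 2690 to 2720 FPKM in PGAM5 KD libraries. The sum hides members that went both ways, with 4 of the 8 tested called higher and 3 lower, and values from 1.51 for Fcgr1 to -0.64 for Csf1r on the log2 scale. Summed markers of neutrophils, fibroblasts, lymphocytes and dendritic cells stayed at or below 0.568, 0.258, 0.211 and 0.613 FPKM. With the 10540 genes that had a mean of at least 1 FPKM, limma called 3346 genes (31.7%) at an adjusted p under 0.05, 1771 higher (16.8%) and 1575 lower (14.9%) in PGAM5 KD cells. After scaling to TPM, which gives each library the same summed level, the split was 1088 higher and 2282 lower.

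Of the 10 CXC genes, Cxcl2, Cxcl10 and Cxcl16 passed the filter and were tested, and 7 were below it. Cxcl2 and Cxcl16 were called higher in PGAM5 KD cells, against 16.8% of all tested genes, and 0 were called lower. For all 3 tested ligands the 3 PGAM5 KD libraries lay above the 3 control libraries, which was so for 24.2% of all tested genes, and for 47.1% in either direction. Levels ran in the order Cxcl2, Cxcl10, Cxcl16, Cxcr4 and Cxcl3, and the ranges over the 6 libraries did not overlap between neighbours in this order. They were 145.0 to 342.1 FPKM for Cxcl2, 31.3 to 40.2 for Cxcl10, 12.4 to 17.1 for Cxcl16, 0.136 to 1.68 for Cxcr4 and 0.0142 to 0.0938 for Cxcl3. Pf4, at 0.114 FPKM in 1 library and listed at 0 in 5, overlapped Cxcl3. Cxcl1, Cxcl5, Cxcl9 and Ppbp were listed at 0 in all 6 libraries.

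**Figure D1:**
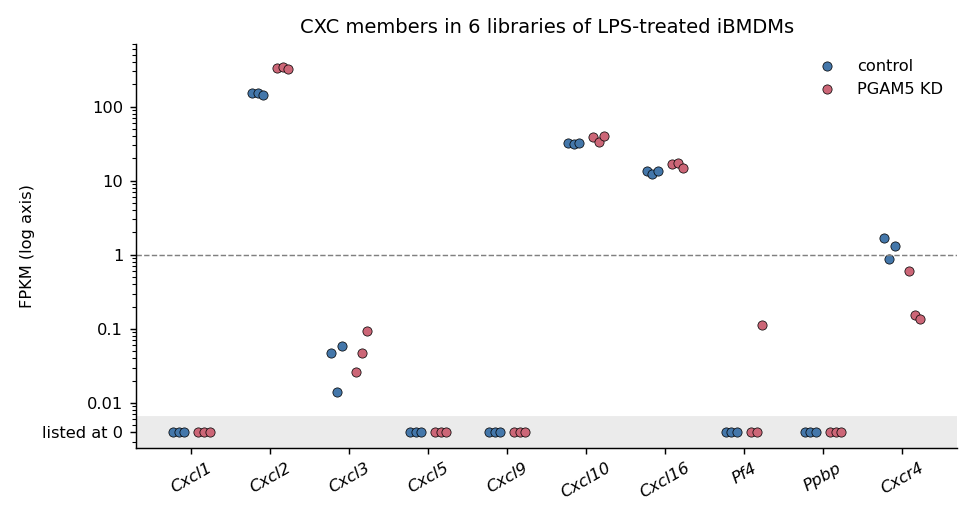
FPKM of the 10 CXC genes on a log axis, with 1 point for each library, control in blue and PGAM5 KD in red. Values listed at 0 are drawn in the grey band and the dashed line is the filter at 1 FPKM; Cxcl2, Cxcl10 and Cxcl16 lie above it in all 6 libraries, 4 genes lie wholly in the band, and Pf4 has 5 of its 6 points there.

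Cxcl2 (ENSMUSG00000058427, chr5:90903871-90905938, plus strand of GRCm38), a neutrophil attractant that macrophages release early after LPS, was the CXC gene with the highest level and the largest change among the 3 tested. It was at 154.4, 152.9 and 145.0 FPKM in control libraries and at 332.4, 342.1 and 320.9 FPKM in PGAM5 KD libraries. The lowest PGAM5 KD library was 167 FPKM above the highest control library. The means were 150.7 ± 5.05 FPKM (SD, n = 3) and 331.8 ± 10.6 FPKM (SD, n = 3), a ratio of 2.20. On the log2(FPKM + 1) scale, on which all fold changes below are given and which understates the change of low genes, the difference was 1.13 (SE 0.04, 95% interval 1.04 to 1.22, limma adjusted p = 9.61e-06). An exact two-sided permutation test of the FPKM values gave p = 0.1, the smallest that 3 libraries against 3 allow. Cxcl2 rested on 5799 to 6380 fragments in control and 12850 to 16187 fragments in PGAM5 KD libraries. Of the 10540 tested genes 71 had a higher fold change, and 83 (0.787%) were called with a log2 fold change above 1, Cxcl2 among them. By mean level Cxcl2 was the gene at rank 295 in control and at rank 130 in PGAM5 KD cells. The difference stayed between 1.02 and 1.16 and past the threshold in all 16 alternative analyses. In these bulk libraries more RNA per cell and more cells that express a gene cannot be told apart.

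Cxcl1, Cxcl3 and Cxcl5, named above with Cxcl2 as carrying the Glu-Leu-Arg motif, were near or at 0 in the same libraries. Cxcl1 (ENSMUSG00000029380, chr5:90891241-90893115), whose start lies 12.6 kb before that of Cxcl2 on the same strand, had 0 fragments in each library. A count of 0 allows up to 3 fragments, which for Cxcl1 is 0.0656 to 0.0881 FPKM. Against that limit Cxcl2 was at least 1750-fold higher than Cxcl1 in every library, with 4890-fold as the highest of the 6 lower bounds. Cxcl5 (ENSMUSG00000029371, chr5:90759360-90761624) had 0 fragments as well, with a limit of 0.0660 to 0.0887 FPKM. Such limits, and the intervals on fragment counts, cover counting error only, and how fragments were assigned to genes was not tested.

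Cxcl3 (ENSMUSG00000029379, chr5:90786103-90789600) had 3, 1 and 4 fragments in control and 2, 3 and 8 fragments in PGAM5 KD libraries. The groups overlapped, and the exact permutation test gave p = 0.5. The sums were 8 fragments (exact Poisson 95% interval 3.45 to 15.8) and 13 fragments (6.92 to 22.2), too few to show a change of the size seen for Cxcl2. The longest coding transcript of Cxcl3 matched that of Cxcl2 at 90.1% identity over 354 bases, so its 21 fragments are uncertain where the counting could have split such reads. Cxcl1 matched Cxcl2 at 78.1% over 347 bases.

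In the stretch of chromosome 5 from Cxcl5 to Cxcl2, 146.6 kb long, the annotation holds 11 genes. Only Pf4, Cxcl3 and Cxcl2 of these 11 had a fragment in any library, and Cxcl2 had 62176 fragments in all 6 against 21 for Cxcl3 and 2 for Pf4.

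The annotated 3′ ends of these ligands were compared for the AU-rich letters TATTTAT, which proteins that control the decay of cytokine RNAs are known to bind. Cxcl2 had 7 matches in 734 bases, a number reached by 0.130% of 9215 tested genes, and Cxcl1 had 6, reached by 0.217%. Cxcl3 had 2, Cxcl5 had 1, and the other 6 genes had 0. The 30 bases richest in the core ATTTA are shown for 3 of these ligands and for Cxcl10 because they differ in these letters. They are written 5′ to 3′ in the sense of the RNA, from the GENCODE M21 transcript with the longest coding sequence, and capitals mark the ATTTA cores.
Cxcl1 (bases 79 to 108 after the stop codon): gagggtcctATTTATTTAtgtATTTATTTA
Cxcl2 (bases 123 to 152 after the stop codon): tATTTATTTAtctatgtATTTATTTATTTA
Cxcl3 (bases 181 to 210 after the stop codon): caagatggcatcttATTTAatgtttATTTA
Cxcl10 (bases 389 to 418 after the stop codon): ttttatttcagatgtaagactacaaATTTA
The Cxcl2 stretch held 5 of the 11 ATTTA cores of its 3′ end, and the 729 bases of the Cxcl10 3′ end held 2. A match is a run of letters and not a measured binding site.

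Cxcl10 (ENSMUSG00000034855, chr5:92346638-92348889, minus strand), the interferon-induced ligand of Cxcr3, differed little between the groups. It was at 32.0, 31.3 and 32.3 FPKM in control libraries and at 39.2, 33.0 and 40.2 FPKM in PGAM5 KD libraries. The groups did not overlap, but PGAM5 KD replicate 2 was only 0.703 FPKM above the highest control library. The means were 31.9 ± 0.473 and 37.5 ± 3.93 FPKM (SD, n = 3 each), with a coefficient of variation of 1.48% in control and 10.5% in PGAM5 KD libraries. The log2 fold change was 0.22 (SE 0.07, unadjusted 95% interval 0.05 to 0.40), and the limma adjusted p of 0.0583 missed the threshold. Refitted without PGAM5 KD replicate 2 the log2 fold change was 0.31 with a limma adjusted p of 0.00494. Without any other single library the limma adjusted p was 0.116 to 0.160. Over the 16 alternatives it ran from 0.00494 to 0.194. Of the tested genes 1923 had a higher fold change.

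The other 2 CXC genes of the same cluster, Cxcl9 and Cxcl11, were low. Cxcl9 (ENSMUSG00000029417, chr5:92321347-92328079), which responds mainly to interferon-gamma, had 0 fragments in each library, and the limit of 3 fragments is 0.0408 to 0.0548 FPKM. Cxcl11, annotated as a polymorphic pseudogene, had 20 to 32 fragments per library and overlapped between the groups (exact permutation p = 0.2). Cxcl10 shares 133 exon bases with Art3 on the opposite strand, and Art3 had 3 to 6 fragments per library.

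**Figure D2:**
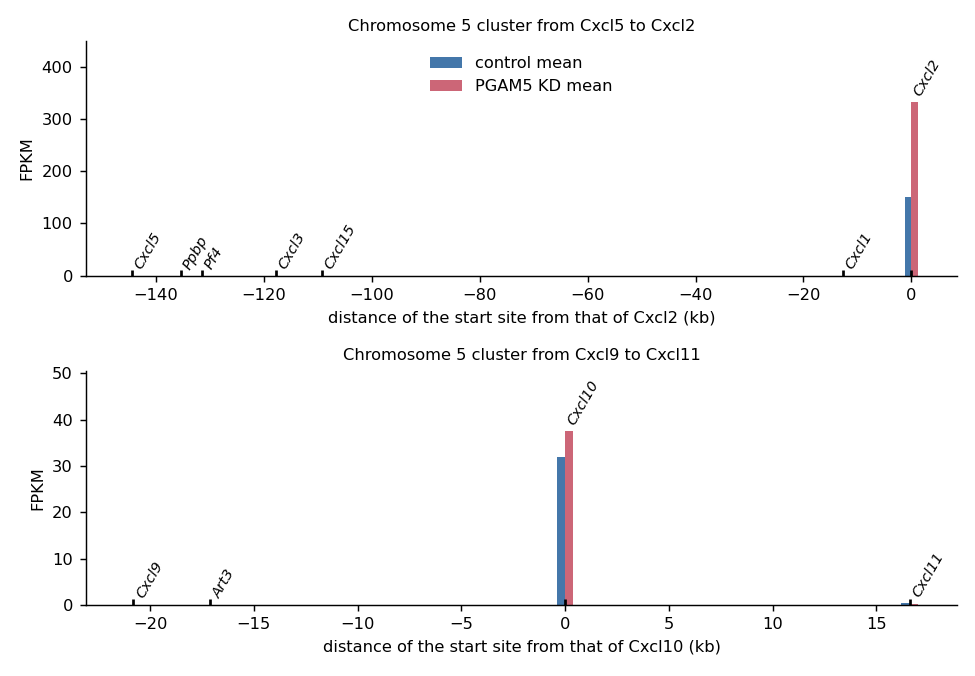
Mean FPKM of control (blue) and PGAM5 KD (red) libraries for the chemokine genes and Art3 in both chromosome 5 clusters, against the distance of each start site from that of Cxcl2 (top) or Cxcl10 (bottom) in kb. Bars for Cxcl2 and Cxcl10 rise to 331.8 and 37.5 FPKM in PGAM5 KD cells, and the neighbours stay near 0 on these axes.

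Cxcl16 (ENSMUSG00000018920, chr11:70453983-70459984, minus strand), the ligand of Cxcr6, was at 13.6, 12.4 and 13.6 FPKM in control libraries and at 16.7, 17.1 and 14.8 FPKM in PGAM5 KD libraries. All PGAM5 KD libraries were higher, the nearest by 1.17 FPKM. The means were 13.2 ± 0.699 and 16.2 ± 1.23 FPKM (SD, n = 3 each), a ratio of 1.23. The log2 fold change was 0.27 (SE 0.07, 95% interval 0.12 to 0.43, limma adjusted p = 0.0210). This call was lost in 6 of 16 alternatives, after scaling to TPM among them (0.21, limma adjusted p = 0.0617), while the value stayed positive in all 16. Without control replicate 2, PGAM5 KD replicate 1 or PGAM5 KD replicate 2 the limma adjusted p was 0.0643, 0.0581 and 0.0669. Zmynd15 shares 18.3% of the Cxcl16 exon bases on the opposite strand and had 76 to 144 fragments per library against 745 to 1106 for Cxcl16. The protocol names both a directional and a non-directional kit, so fragments in the shared bases are uncertain.

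Adam10, the protease known to release Cxcl16 from the cell surface, was at 43.0 ± 2.17 FPKM in control and 54.8 ± 0.832 FPKM in PGAM5 KD libraries (SD, n = 3 each), a log2 fold change of 0.34 (SE 0.04, limma adjusted p = 0.00148). It belongs to a list of 10 annotated genes of chemokine shedding, chemokine cleavage and mRNA decay, of which 9 were tested, 3 were called higher and 1 lower, where 16.8% and 14.9% of all tested genes were. After scaling to TPM 2 were called higher and 2 lower, against 1088 and 2282 of all 10540 tested genes. Zfp36, which binds AU-rich 3′ ends and promotes their decay, rose by 0.44 (SE 0.05, limma adjusted p = 0.000632), and its relative Zfp36l2 fell by 0.39 on the log2 scale (SE 0.04, limma adjusted p = 0.000526). Zc3h12a, an RNase of inflammatory mRNAs, had a value of 0.20 with a limma adjusted p of 0.0437, and missed the threshold after scaling to TPM and after quantile normalization.

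Pf4 (ENSMUSG00000029373, chr5:90772435-90773383) and Ppbp (ENSMUSG00000029372, chr5:90768518-90770063), the platelet chemokines, were practically undetected. Pf4 had 2 fragments in PGAM5 KD replicate 3 and 0 in the other 5 libraries. Ppbp had 0 fragments in each library, with a limit of 0.114 to 0.153 FPKM. Summed markers of platelets and megakaryocytes were 0.884 to 1.40 FPKM in control and 0.653 to 0.722 FPKM in PGAM5 KD libraries. Gp9, Gp6 and Gp1bb were among those listed at 0. Other markers of the list had fragments, with 0.602 FPKM as the highest value of any marker in any library.

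Cxcr4 (ENSMUSG00000045382, chr1:128588199-128592293, minus strand) was the only one of the 10 genes whose PGAM5 KD libraries lay below all control libraries, as was so for 22.9% of all tested genes. It was at 1.68, 0.877 and 1.30 FPKM in control libraries and at 0.604, 0.152 and 0.136 FPKM in PGAM5 KD libraries. These values rest on 55, 32 and 46 fragments against 24, 5 and 6, or 133 (exact Poisson 95% interval 111 to 158) against 35 (24.4 to 48.7) in sum. The control mean was 1.29 ± 0.399 FPKM and the PGAM5 KD mean 0.297 ± 0.266 FPKM (SD, n = 3 each), a ratio of 4.32 of control to PGAM5 KD. The ratio was 8.91 without PGAM5 KD replicate 1, the highest of the PGAM5 KD libraries, and 3.40 to 5.01 without any of the other 5. These ratios were added after seeing the data. The spread within PGAM5 KD libraries, a coefficient of variation of 89.3% where counting error alone gives 29.3%, was the widest of the 4 CXC genes for which it was computed. The exact permutation test gave p = 0.1, the smallest possible. Cxcr4 had a mean of 0.791 FPKM over the 6 libraries and so was outside the tested genes. In a fit without the filter its log2 fold change was -0.82 (SE 0.19, limma adjusted p = 0.0485). With voom on the recovered fragments of all genes it was -2.32 (SE 0.59, limma adjusted p = 0.00831). The fit without the filter kept its call without PGAM5 KD replicate 1 (limma adjusted p = 0.0471) and lost it without any of the other 5 libraries (adjusted p 0.0758 to 0.174 from limma).

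**Figure D3:**
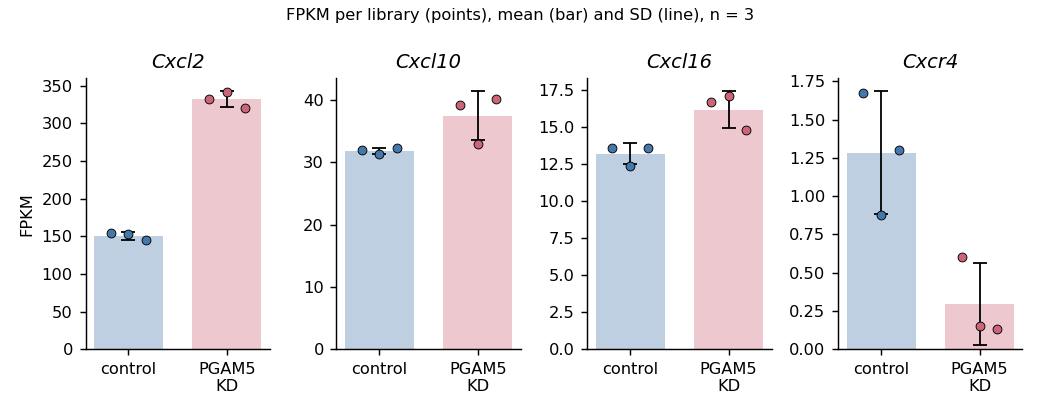
FPKM of Cxcl2, Cxcl10, Cxcl16 and Cxcr4 in control (blue) and PGAM5 KD (red) libraries, each panel with its own linear axis from 0. Points are libraries, bars are means and lines are SDs (n = 3); the PGAM5 KD points lie above the control points for the 3 ligands and below them for Cxcr4.

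The other CXC genes were counted from a list of 6 ligands and 8 receptors. Of the ligands only Cxcl14 passed the filter, and of the receptors only Cxcr3. Cxcr3, the receptor of Cxcl9 and Cxcl10, was at 3.91, 4.27 and 5.09 FPKM in control and at 6.83, 8.52 and 8.74 FPKM in PGAM5 KD libraries, a log2 fold change of 0.74 (SE 0.11, limma adjusted p = 0.00350), and was called in all 16 alternatives. Cxcl14, a chemokine of epithelia and stroma, was at 4.46, 3.77 and 3.90 FPKM in control and 6.20, 4.55 and 5.54 FPKM in PGAM5 KD libraries, with a log2 fold change of 0.35 (SE 0.11, limma adjusted p = 0.0488). Its call was lost in 11 of 15 alternatives. Cxcr2, the receptor of Cxcl2, had 5 fragments in control replicate 3, 4 in PGAM5 KD replicate 3 and 0 in the other libraries, and Cxcl12, the ligand of Cxcr4, was listed at 0.

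The make-up of the CXC ligand RNA differed between the groups. The summed level of 15 CXC ligand genes was 200.2 ± 4.83 FPKM in control and 391.2 ± 8.15 FPKM in PGAM5 KD libraries (SD, n = 3 each). Cxcl2 made up 75.4%, 76.1% and 74.3% of this sum in control libraries and 84.2%, 86.2% and 84.0% in PGAM5 KD libraries. Cxcl10 made up 15.6%, 15.6% and 16.5% in control libraries and 9.93%, 8.30% and 10.5% in PGAM5 KD libraries, although its own level was not lower in any of them. Cxcl16 went from 6.59% ± 0.406 to 4.13% ± 0.231 (SD, n = 3 each). Each of these shares was separated between the groups, with p = 0.1 from the exact permutation test, the smallest possible. The shares add up to a whole, so the rise of Cxcl2 by itself lowers the others. These p-values are therefore not independent.

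**Figure D4:**
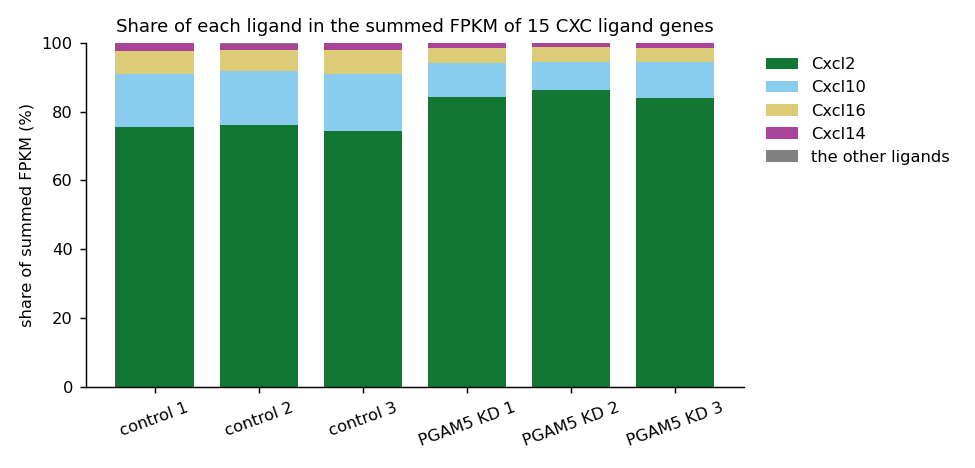
Share of each ligand in the summed FPKM of 15 CXC ligand genes (%), 1 stacked bar for each of the 6 libraries. The Cxcl2 part covers 74.3% to 76.1% of the bar in control and 84.0% to 86.2% in PGAM5 KD libraries.

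The change of Cxcl10 was set against that of Cxcl2 as a ratio within each library, which hardly depends on scaling between libraries. This ratio restates the fold changes given above for single genes and does not compare the interferon and NF-kB pathways. Of the 10540 tested genes only 71 had a higher fold change than Cxcl2, so most genes set over Cxcl2 would fall. The log2 ratio of Cxcl10 to Cxcl2 was -2.24, -2.25 and -2.13 in control libraries and -3.05, -3.34 and -2.97 in PGAM5 KD libraries. The groups did not overlap, and the difference was -0.91. The exact two-sided permutation test gave p = 0.1 (Benjamini-Hochberg 0.1 over the 2 ratios that were run), the smallest possible. In plain FPKM, Cxcl2 was 4.49 to 4.88 times Cxcl10 in control and 7.98 to 10.4 times Cxcl10 in PGAM5 KD libraries. The log2 ratio of Cxcl16 to Cxcl2 was -3.41, -3.52 and -3.32 in control libraries and -4.24, -4.25 and -4.35 in PGAM5 KD libraries, a difference of -0.86 with the same exact permutation p of 0.1. Both planned ratios with Cxcl1 were not run, since Cxcl1 was listed at 0 and its term would have been the pseudocount of 1 alone.

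The ligands were then set beside lists of genes of the same pathways, which serve as description and share these libraries. Of 22 NF-kB target and feedback genes, all tested, 8 were called higher and 3 lower, the latter near the 14.9% of all tested genes and the former against 16.8%. After scaling to TPM 6 were called higher and 5 lower, where 1088 and 2282 of all 10540 tested genes were. The list had a median log2 fold change of 0.04 where that of all tested genes was 0.01. After scaling to TPM the list median was -0.04 and that of all tested genes -0.06. After quantile normalization they were -0.01 and -0.003. Cxcl2 had a higher log2 fold change than 21 of the 22, all but Ptgs2, the inducible cyclooxygenase, which rose by 1.63 (SE 0.05, limma adjusted p = 7.42e-06). The CC chemokines Ccl4 and Ccl3 of this list, which attract monocytes and T cells, rose by 0.74 and 0.57. Nfkbiz, a nuclear co-regulator of NF-kB, rose by 0.58.

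Of 22 interferon target genes 18 were tested, 16 were called higher and 0 lower, against 16.8% and 14.9% of all tested genes, and the median log2 fold change was 0.90 against 0.01 over all tested genes. Cxcl10, at 0.22, was below 16 of the 18. The 2 below it, named after their values were seen, were Socs1 at 0.21 and Irf9 at 0.02, and neither passed the threshold. The highest was Irf7, the transcription factor that amplifies type I interferon production, with 1.60. Ccl5, a chemokine induced by interferon and NF-kB together, rose from 40.6 ± 1.72 to 59.0 ± 2.09 FPKM (SD, n = 3 each), by 0.53 on the log2 scale (SE 0.04, limma adjusted p = 0.000259). It too was named after its values were seen. Of 7 interferon ligand genes 6 were listed at 0, and Ifnb1 was at 0.425 to 2.06 FPKM with the groups overlapping.

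**Figure D5:**
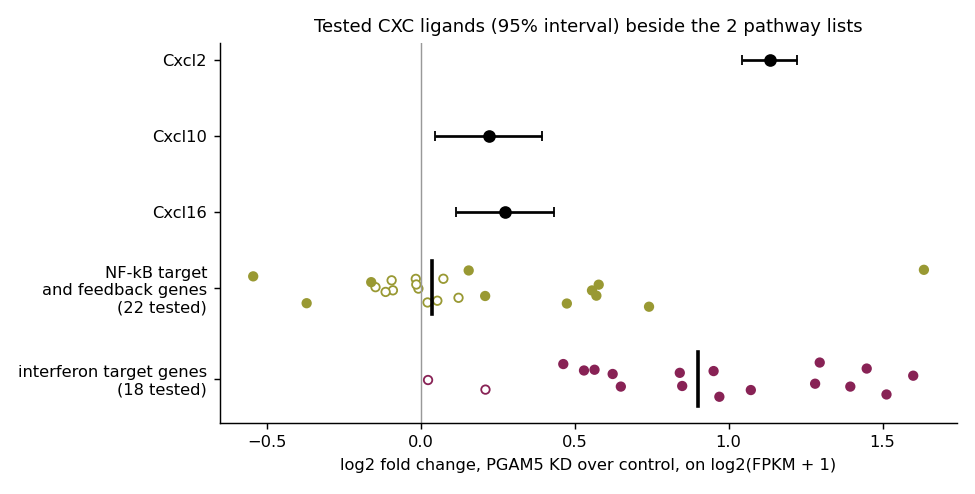
Log2 fold change of PGAM5 KD over control on the log2(FPKM + 1) scale for the 3 tested CXC ligands (points with 95% intervals) and for each tested gene of the NF-kB and interferon target lists (circles, filled at a limma adjusted p under 0.05; the vertical bar is the list median). Cxcl2 lies at 1.13, to the right of all but 1 NF-kB gene, and Cxcl10 at 0.22, to the left of 16 of 18 interferon genes.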

How the data were processed

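Poly(A) RNA of 6 libraries was sequenced by a provider. The authors deposited FPKM, 1 table per library. The submitters' processing notes name HISAT2 2.0.5, featureCounts 1.5.0-p3 and the build mm10. FPKM was scaled only for depth and exon length, and a gene's exons were summed over its transcripts. Symbols, coordinates and exon lengths came from GENCODE M21 (GRCm38), which held 54495 of the 54532 identifiers. FPKM times exon length fell within 0.01 of whole fragments for 96.8% to 97.1% of values under 1000 fragments, which gave the depth of each library.

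Limma 3.58.1 (R 4.3.3) was run on log2(FPKM + 1) with a mean-variance trend, two-sided, with Benjamini-Hochberg adjustment over the 10540 genes whose mean FPKM reached 1, genes were called at an adjusted p under 0.05, and differentially expressed with an absolute log2 fold change above 1. Single values were compared by exact permutation tests with scipy 1.17.1. The fit was tested on simulated data. Transcripts were compared with blastn 2.17.0, with at least 85% identity over at least 200 bases as similar. Alternatives were other pseudocounts, filters and scalings, voom, a replicate block and leaving out each library; fits of Cxcr4 without the filter were chosen after its level was seen. Named are all 10 CXC genes, Pgam5, other CXC genes that passed the filter, at most 4 genes past the threshold per other list by size, and genes beside a CXC result; other genes are marked. The genes and lists were chosen with earlier results of these data known. 1 written name, Auf1, is another name of Hnrnpd, which the list also held. A marker gene of the platelet list is not reported here.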

Additional observations from a re-analysis of the deposited data

How the results depend on the processing

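Cxcl2 was higher and called in all 16 alternatives (1.02 to 1.16, and 1.11 to 1.16 leaving out 1 library). Cxcl10 stayed positive (0.15 to 0.31) and passed the threshold in 4, with a mean FPKM of at least 5 (0.22), with voom on recovered fragments (0.24), with voom and no filter (0.24, chosen after seeing the data) and without PGAM5 KD replicate 2 (0.17 to 0.31 over the libraries left out). Cxcl16 stayed positive (0.21 to 0.33) and missed it in 6, without the filter (0.27, more genes tested), scaled to TPM (0.21), with the replicate block (0.27, limma adjusted p = 0.0523) and without 1 of 3 libraries (0.23 to 0.33 over the 6). Cxcr4 without the filter was lower in all 10 alternatives, chosen after seeing the data, was not called with a pseudocount of 0.1 (-1.95), and ran from -0.98 to -0.70 leaving out 1 library. Both ratios kept their sign, and with the replicate block or a library left out the exact test can reach no smaller p than it gave. Called higher genes fell from 1771 to 1088 after scaling to TPM, and called lower genes rose from 1575 to 2282. Differentially expressed genes numbered 139, and 261 with a pseudocount of 0.1, 76 at a mean FPKM of at least 5 (fewer genes tested), 233 scaled to TPM, 283 with voom and 694 with voom and no filter, and 138 to 155 leaving out 1 library. NF-kB genes called lower rose from 3 to 5, and shedding and decay genes called lower from 1 to 2, scaled to TPM. Where no cause is given, the cause was not tested. Same-numbered libraries did not deviate together (Pearson's r of -0.02, 0.016 and -0.052 over 10540 genes), so the numbers were not taken as pairs; with the replicate block as a term 2652 genes were called. Of the 7 CXC genes below the filter, 4 had 0 fragments in all 6 libraries, and for these no change could be measured.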
